A study of Homo sapiens with 54 samples.

Results

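Endothelial cells in which no RUNX1 transcript was captured were described in 3 single-cell libraries taken while H1 cells, an established line of human embryonic stem cells, were turned into macrophages in a 3D porous microscaffold. A member had at least 2 UMIs (unique molecular identifiers, each counting 1 captured RNA molecule) of CDH5, at least 4 UMIs of CDH5 and PECAM1 together, and 0 UMIs of RUNX1 and of PTPRC. The rule took 1778 of the 26455 cells that had at least 1000 UMIs, at least 500 genes and under 15% mitochondrial UMIs. These were 617 cells of day 7, 983 of day 9 and 178 of day 12. The members were chosen by their own UMIs of these 4 genes, so what follows on CDH5, PECAM1, RUNX1, PTPRC and the genes that vary with them is a description without a test. All libraries were labelled as macrophage samples of the 3D protocol. Each day had 1 library, no genetic change or drug was named for any of them, and day and library cannot be told apart. The single-cell days were the 3D protocol alone. The 2D protocol was available at day 12 as bulk RNA, with 4 libraries of each protocol.

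Endothelial cells line blood vessels and hold each other through VE-cadherin, the product of CDH5, and through PECAM1. They read VEGF through KDR and FLT1 and angiopoietins through TEK, and Notch signalling through DLL4 and its HEY targets marks the arterial side. In the embryo and yolk sac some endothelial cells switch on RUNX1, the transcription factor that hemogenic endothelium needs to release blood cells, while the remaining endothelium keeps to building vessels. PTPRC encodes CD45, the surface phosphatase of blood cells.

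The upstream windows of 3 genes are shown. They were picked because they hold the sequence CAGGAAG, ROBO4 and PLVAP from the 25 genes highest in the members and ADGRF5 from the markers given for these cells. The window of ADGRL4, another of those markers, has no match. Each window runs from 250 bases before to 50 bases after the RefSeq start on GRCh38.p14, 5′ to 3′ on the minus strand, and capitals mark CAGGAAG or its reverse complement, a sequence of the kind that ETS factors such as ERG and FLI1 bind.
ROBO4 chr11:124897816-124898115: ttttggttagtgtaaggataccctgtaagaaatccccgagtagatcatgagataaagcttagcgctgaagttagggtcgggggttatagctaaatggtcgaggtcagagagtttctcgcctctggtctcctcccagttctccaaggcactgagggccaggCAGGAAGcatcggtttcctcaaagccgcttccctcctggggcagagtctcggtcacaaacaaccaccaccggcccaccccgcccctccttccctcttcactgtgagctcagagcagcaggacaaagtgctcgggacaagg
PLVAP chr19:17377293-17377592: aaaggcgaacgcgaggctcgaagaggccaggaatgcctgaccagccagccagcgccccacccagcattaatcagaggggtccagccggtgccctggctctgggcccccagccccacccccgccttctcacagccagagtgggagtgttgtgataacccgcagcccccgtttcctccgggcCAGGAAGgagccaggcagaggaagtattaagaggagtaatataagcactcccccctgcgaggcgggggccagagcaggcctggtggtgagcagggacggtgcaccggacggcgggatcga
ADGRF5 chr6:46954890-46955189: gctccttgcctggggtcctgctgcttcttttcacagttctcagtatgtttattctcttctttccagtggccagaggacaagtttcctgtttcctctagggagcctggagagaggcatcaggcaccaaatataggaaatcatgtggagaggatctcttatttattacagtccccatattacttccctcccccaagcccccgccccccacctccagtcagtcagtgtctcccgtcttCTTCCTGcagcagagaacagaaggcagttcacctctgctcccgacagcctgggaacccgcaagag
CAGGAAG on either strand was present in 10 of 26 matched windows of the pan-endothelial list of 36 genes (38.5%), in 4 of 17 matched windows of the 25 highest genes (23.5%), and in 12.8% of all 27305 windows. CCGGAAG, another ETS sequence, was present in 0 of the 26, in 1 of the 17 and in 10.7% of all windows. CATTGT, of the SOX kind, was found in 5 of the 26 (19.2%), in 2 of the 17 (11.8%) and in 10.97% of all. AGATAA, of the GATA kind, was found in 4 of the 26 (15.4%), in 1 of the 17 (5.88%) and in 10.5% of all. A match is a match of letters and not a measured binding site.

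Members made up 9.12% of the cells on day 7 (95% exact Clopper-Pearson interval 8.44 to 9.83), 8.38% on day 9 (7.89 to 8.90) and 2.24% on day 12 (1.92 to 2.58). These intervals cover counting error only and not the difference between cultures. With 1 RUNX1 UMI allowed the shares were 14.1%, 12.7% and 2.85%. The median member held 20122, 13881 and 15310 UMIs on days 7, 9 and 12, against 25097.5, 13183.5 and 17149 UMIs in all other cells. The label macrophage was met by few cells before day 12, since 1, 82 and 2334 cells on the 3 days had PTPRC and at least 10 UMIs of CD14, CD68, CSF1R and C1Q genes. No member barcode was shared between libraries, and 15 to 21 barcodes of all cells were shared by each pair of libraries. Scrublet called 14, 62 and 11 members doublets on the 3 days, which is 2.27%, 6.31% and 6.18% of them.

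The share of cells with no RUNX1 UMI was lower in cells read more deeply, and those cells also held more RUNX1 per UMI. Cells that met the CDH5 and PECAM1 rule and lacked PTPRC were cut into 4 depth groups of equal size within each day. On day 7 the share with no RUNX1 UMI was 49.4% in the shallowest group (median 14817 UMIs), 31.5% and 23.5% in the middle groups and 11.7% in the deepest (median 44421 UMIs). On day 9 it ran 67.1%, 48.2%, 33.3% and 16.8%. On day 12 it ran 82.4%, 71.6%, 62.7% and 47.1%. The order was the same on all 3 days, and at every group the day 12 share was the highest. The RUNX1 level of the shallowest and the deepest group was 162 and 408 per 1000000 UMIs on day 7, 74.5 and 176 on day 9, and 25.8 and 44.3 on day 12. Depth and RUNX1 level thus moved together, and their parts in the share were not tested. Over all depths 29.0%, 41.4% and 65.9% of these cells lacked RUNX1 on days 7, 9 and 12, while their summed RUNX1 level went from 310.2 to 142 to 37.8 per 1000000 UMIs. A cell with 0 UMIs of RUNX1 is therefore not shown to lack the transcript.

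**Figure D1:**
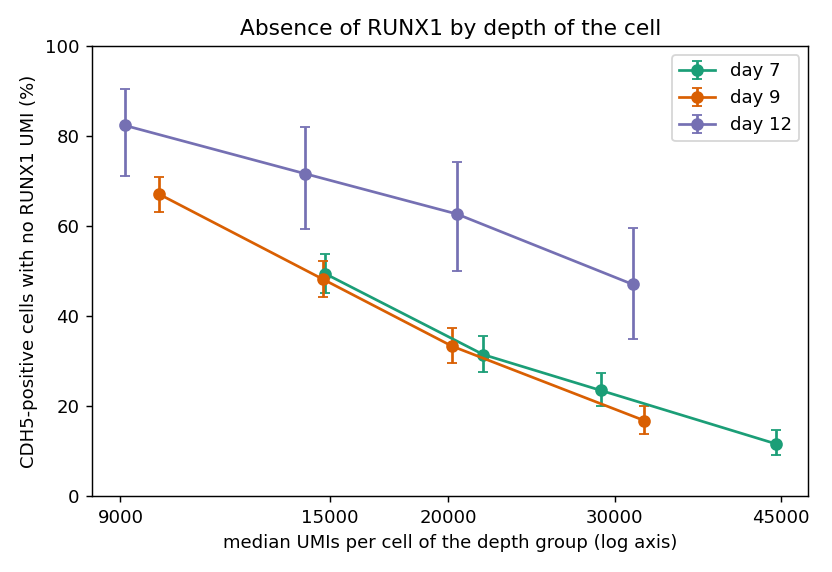
Share of CDH5-positive, PTPRC-negative cells with no RUNX1 UMI (y axis, percent) against the median UMIs of each depth group (x axis, log scale), by day, with 95% exact binomial intervals. The shallowest and the deepest group stood at 49.4% and 11.7% on day 7 and at 82.4% and 47.1% on day 12.

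Near the thresholds, 14, 30 and 5 members had exactly 4 UMIs of CDH5 and PECAM1 together on days 7, 9 and 12, and 7, 25 and 3 cells with 3 UMIs fell just outside. A further 335, 509 and 49 cells were left out by a single RUNX1 UMI. On day 7 those 335 cells held KDR at 1123 CPM and ERG at 336 CPM, beside 1155 and 322 CPM in members. They held PREX2, ADGRF5 and ADGRL4 at 281, 217 and 610 CPM, each above its day 7 level in members, given below. On day 12 the 49 cells held PREX2 and ADGRF5 at 462 and 374 CPM, below members, and ADGRL4 at 840 CPM, above members. The 14 day 7 members just inside the sum of 4 held less than the 335 cells. They had KDR at 471 CPM, ERG at 103 CPM, PREX2 at 19.04 CPM, ADGRF5 at 10.9 CPM and ADGRL4 at 27.2 CPM. The median member had 8, 5 and 12 UMIs of CDH5 and 9, 9 and 18 of PECAM1.

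Of the 5 marker genes given for these cells, CDH5 and PECAM1 were part of the rule and their height in members was fixed by it. PREX2, ADGRF5 and ADGRL4 were not in the rule. All 5 were given with earlier results of these data known, so their height is also a description without a test. Levels below are summed UMIs of a population per 1000000 (CPM), in the order day 7, day 9, day 12. CDH5 (chromosome 16, 66366691 to 66404784) stood at 413, 398 and 789 CPM in members and at 7.22, 10.4 and 4.04 CPM in cells outside the CDH5 and PECAM1 rule. PECAM1, an adhesion molecule of endothelial junctions and of blood cells, stood at 487, 654 and 1183 CPM. PREX2, an exchange factor for the GTPase Rac, was at 254, 232 and 504 CPM in members and 6.36, 9.17 and 1.17 CPM outside the rule. The adhesion GPCR ADGRF5 was at 191, 200.2 and 389.8 CPM in members and 2.18, 7.57 and 0.714 CPM outside. Its relative ADGRL4 was at 514, 590.1 and 824 CPM, with a 95% exact Poisson interval of 502 to 526 on day 7, and at 7.00, 26.3 and 1.78 CPM outside. PREX2, ADGRF5 and ADGRL4 stood above the cells outside the rule on every day and were highest on day 12. Markers of macrophages were near 0: CD14 was at 0.219, 0.200 and 10.9 CPM and C1QA at 0, 0.0668 and 6.60 CPM, and the 15 macrophage genes summed to 93.7, 64.4 and 160.0 CPM, with 4, 1 and 0 of them at 0. The same list summed to 296, 398 and 3963 CPM in all other cells.

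**Figure D2:**
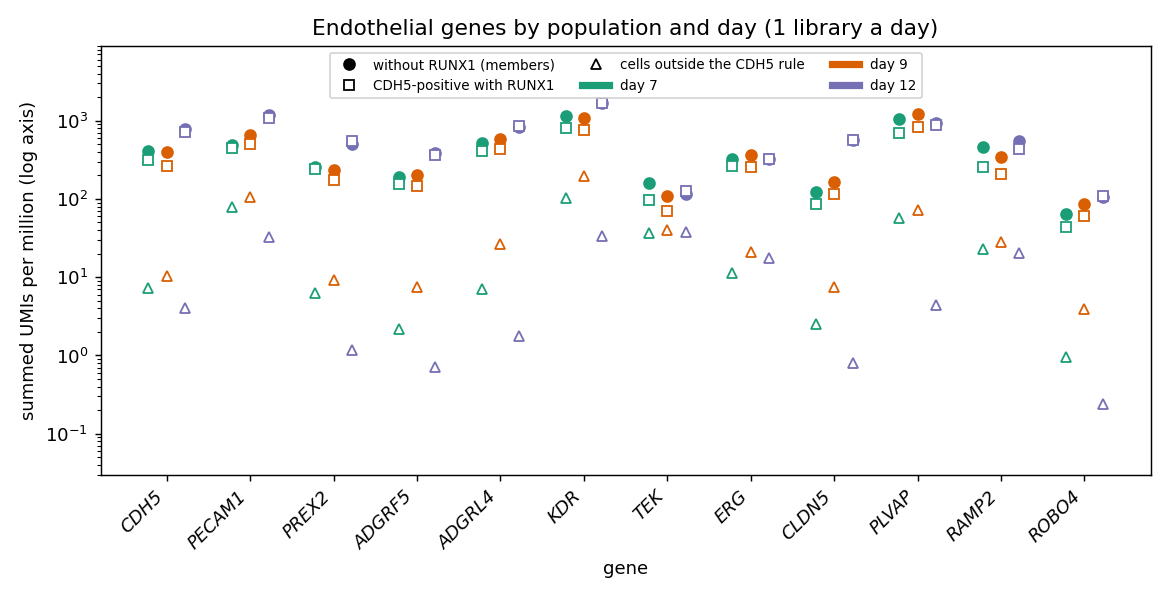
Levels of 12 endothelial genes (y axis, summed UMIs per 1000000, log scale; x axis, gene) in members, in CDH5-positive cells with RUNX1 and in cells outside the CDH5 and PECAM1 rule, coloured by day with 1 library a day. The members and the cells with RUNX1 sit close together, and both lie above the cells outside the rule for every gene plotted.

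Against all other cells, which include the CDH5-positive cells with RUNX1, 409 of 4178 genes were at least 2-fold higher in members on all 3 days (9.79%) and 110 were at least 2-fold lower (2.63%), counting genes with at least 50 CPM in the higher population on each day. The lower count was 175 when globin, mitochondrial and ribosomal protein genes were left out of the totals, and 169 with days 7 and 9 alone. Against the cells outside the CDH5 and PECAM1 rule, 561 of 4218 genes were higher (13.3%) and 160.0 were lower (3.79%). Of the pan-endothelial list without the rule genes, 27 of 29 genes that reached 50 CPM were higher and 0 were lower, and EGFL7 and MYCT1 were the 2 that missed the fold. ROBO4, a guidance receptor of vessels, had the largest smallest-of-3-days fold, at 64.8, 86.0 and 106 CPM in members and 12.9, 16.05 and 2.52 CPM in other cells. RAMP2, which turns CALCRL into the adrenomedullin receptor, followed at 462, 340.4 and 544 against 87.3, 68.2 and 28.7 CPM, and CALCRL itself was at 506, 479 and 417 against 113, 105 and 22.3 CPM. The tight junction gene CLDN5 was at 123, 167 and 573 against 26.1, 31.0 and 12.9 CPM, and PLVAP, the diaphragm protein of fenestrae, at 1037, 1223 and 932 against 239.6, 237 and 23.1 CPM. HPGD, which breaks down prostaglandins, was at 186, 318 and 198 against 38.9, 56.6 and 6.41 CPM. The other genes among the 25 were TCIM, SOX17, PCDH12, GIMAP8, GIMAP4, MMRN2, S1PR1, DLL4, THSD1, LIMCH1, SEL1L3, CLEC14A, NOVA2, BCL6B, FAM124B, CDH5, CD93, DIPK2B and GJA5.

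Receptors for VEGF and angiopoietins stood above their level in other cells. FLT1, a VEGF receptor, was at 2233, 2513 and 2953 CPM, and KDR, the main signalling receptor for VEGF-A, was at 1155, 1079 and 1666 CPM against 304, 314 and 68.2 CPM in other cells. NRP1, their co-receptor, was at 1005, 1206 and 1323 CPM. TEK and TIE1, the angiopoietin receptor and its partner, were at 161, 110.1 and 115 and 276, 306 and 488 CPM. In the list of VEGF, angiopoietin and semaphorin genes 10 of 14 were higher and 0 lower, where 9.79% of all genes were higher. The ligand VEGFA, at 29.7, 27.7 and 19.1 against 59.4, 70.4 and 75.02 CPM, was 1 of the 4 that missed the fold. In the BMP and TGF-beta list 5 of 14 genes were higher and 0 lower, among them ACVRL1, the endothelial BMP9 receptor, at 92.4, 87.3 and 129 CPM. ID1 and ID3, targets of BMP signalling, were at 974, 715 and 611 and 748, 648 and 638 CPM.

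Among transcription factors, 12 of 17 genes that reached 50 CPM were higher in members and 0 lower, where 9.79% of all genes were higher. ERG, an ETS factor that keeps endothelial identity, was at 322, 367 and 328 CPM against 82.2, 70.8 and 23.9 CPM in other cells. The related ETS1 was at 384, 419 and 301 CPM, and SOX18 and SOX7 at 236, 220.3 and 292 and 213, 104 and 183 CPM. MECOM, a zinc finger factor of arterial endothelium and blood stem cells, was the highest of those 5, at 1368, 1560.5 and 1693 CPM. Blood factors shared with endothelium did not stand apart in this way: LMO2 was at 189, 192 and 187 CPM in members and 225, 165 and 124 CPM in other cells, and TAL1 at 24.97, 21.2 and 22.8 against 50.1, 49.6 and 24.8 CPM.

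Of 17 arterial and Notch genes that reached 50 CPM, 14 were higher in members and 0 lower, where 9.79% of all genes were higher. Against the CDH5-positive cells with RUNX1, 0 of these 17 passed the fold. EFNB2, the arterial ephrin, was at 962, 987 and 874 CPM, the gap junction genes GJA4 and GJA5 at 498, 489.9 and 672 and 139, 209.6 and 717 CPM, DLL4 at 146, 144 and 201 CPM and its targets HEY1 and HEY2 at 203, 173 and 201 and 138, 169 and 96.6 CPM. Of the 3 venous genes that reached 50 CPM, only EPHB4 was higher, at 72.4, 68.7 and 85.4 CPM. The venous list summed to 410, 280 and 456 CPM in members and 239, 309 and 263 CPM in other cells. NR2F2, the factor that sets venous identity, was at 23.7, 13.2 and 31.3 CPM, against 22.7, 25.8 and 35.5 CPM in other cells. NRP2, plotted with the venous genes, was uneven among the clusters described further on. On day 7 it was at 328 CPM in members of cluster 2 and 66.9 CPM in those of cluster 3. Of the tip and capillary list 5 of 5 were higher, led by ESM1, a proteoglycan of sprouting tips, at 1020.2, 1139.7 and 384 CPM. PROX1, which lymphatic endothelium needs, was at 8.91, 7.15 and 4.95 CPM, while the lymphatic receptor FLT4 was higher than in other cells at 110.4, 136 and 151 against 26.2, 25.9 and 4.20 CPM. No gene of the sinusoidal list reached 50 CPM on all 3 days.

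Structural genes of the vessel wall split. Of 19 junction genes 10 were higher and 0 lower, where 9.79% of all genes were higher and 2.63% lower. Among the higher genes were the connexin GJA1 at 570.2, 669.5 and 740.1 CPM and PTPRM, a phosphatase that sits at cadherin contacts, at 1033, 979.5 and 1364 CPM. Of 17 matrix genes 8 were higher and 2 lower. COL4A1, a chain of basement membrane collagen, was at 1157, 1457 and 1448 against 422, 546 and 281 CPM, and HSPG2, which encodes perlecan, at 819.8, 903 and 872 against 226, 219 and 49.7 CPM. VCAN and IGFBP7 were the lower pair. Of the coagulation list 3 of 7 were higher, with TFPI, the inhibitor of the tissue factor pathway, at 1086, 1054 and 1368 CPM. VWF, the platelet-binding protein of mature endothelium, was at 65.4, 29.5 and 21.8 CPM.

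Of a list of 21 genes of the blood cell niche, 4 reached 50 CPM on all days and 17 did not. Of the 4, KITLG, DLL4 and PDGFB were higher in members, where 9.79% of all genes were higher. DLL4 was also counted with the arterial and Notch genes. KITLG, the ligand of the receptor KIT, was at 106, 94.0 and 55.4 against 38.7, 30.8 and 9.82 CPM. PDGFB, which draws pericytes to vessels, was at 144, 186 and 149 against 36.8, 46.3 and 13.8 CPM. CSF1, the macrophage growth factor, was at 5.62, 4.74 and 7.92 CPM, IL34 at 2.85, 2.20 and 0.989 CPM and CXCL12 at 2.70, 2.20 and 1.98 CPM.

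The genes lowest in members were mostly blood genes. The 10 lowest were RUNX1, which the rule used, APBB1IP, PLEK, RTN1 and the globins HBZ, HBE1, HBG1, HBG2, HBA1 and HBA2. All 6 erythroid genes that reached 50 CPM were lower, where 2.63% of all genes were lower. HBZ, the embryonic alpha-type globin, was at 147, 113 and 66.0 CPM in members and 2657, 2036 and 3825 CPM in other cells. With every cell thinned to 8000 UMIs, 40.2%, 37.1% and 39.9% of members had an HBZ UMI, and 40.4%, 48.7% and 39.6% of collagen-rich cells did. The source of these HBZ UMIs was not tested. HBZ was uneven among members: the 57 day 7 cells and 32 day 9 cells of cluster 8, described with the clusters, held it at 664 and 2043 CPM, and on day 9 the other clusters lay between 44.3 and 69.4 CPM. Of the G2/M list 3 of 9 genes were lower and 0 higher, namely NUSAP1, CENPF and CKS2. CENPF, a protein of the mitotic kinetochore, was at 101, 71.0 and 43.2 CPM in members and 220.2, 153 and 117 CPM in other cells.

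Lists of other cell types and functions were read the same way. In the mesenchyme list COL1A1, COL3A1 and LUM were lower, COL1A2 missed the fold and THY1 was higher, and the list summed to 1024, 1205 and 1389 CPM in members and 1653, 3616 and 8965 CPM in other cells. COL1A1, a chain of fibrillar collagen, was at 196, 332 and 351 against 509.8, 1353 and 2625 CPM, and 45.8% of thinned members and 47.0% of thinned macrophage reference cells held a UMI of it on day 12. The keratins KRT8, KRT18 and KRT19 were lower. RGS5 and MCAM, pericyte genes that endothelium also uses, were higher, and TAGLN, a smooth muscle gene, was lower. In the mesenchymal transition list ZEB1 was higher, TAGLN was lower and 7 of 9 missed the fold. None of 14 glycolysis and hypoxia genes passed the fold, and no HOXA or HOXB gene reached 50 CPM on all days.

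With RUNX1 as the dividing line, few of the genes that reached 50 CPM passed the fold. CDH5-positive, PTPRC-negative cells with at least 1 RUNX1 UMI numbered 1510, 1394 and 92, and their median depth was higher, at 27420.5, 20429.5 and 20652 UMIs. Of 3953 genes 0 were at least 2-fold higher in members on all 3 days (0.0%) and 11 were at least 2-fold lower (0.278%). The 11 were RUNX1 itself, the globins HBZ, HBE1, HBG1, HBG2, HBA1 and HBA2, the haem pathway genes BLVRB and SLC25A37, the platelet gene GP1BB, and STON2, which was named after its value was seen. HBZ was at 609.9, 964 and 3072 CPM in the cells with RUNX1. GP1BB, a subunit of the platelet von Willebrand factor receptor, was at 5.99, 12.3 and 30.7 CPM in members and 60.5, 83.9 and 100.5 CPM in the cells with RUNX1. After the 2 populations were chosen and measured again in cells thinned to 8000 UMIs, RUNX1 was the 1 gene left. Thinning also removed RUNX1 UMIs, so cells that lost theirs were counted as members and mixed the 2 populations. This repeat therefore cannot separate depth from that mixing, and the part of depth in the other differences was not tested.

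Endothelial genes were near the same level on both sides of that line. The median pan-endothelial gene was 1.30-fold, 1.42-fold and 1.02-fold of its level in the cells with RUNX1 on days 7, 9 and 12, and none of 29 passed 2-fold on all days. KDR was at 817, 758 and 1691 CPM in those cells, CLDN5 at 86.9, 116 and 573 CPM and GJA5 at 101, 154 and 669 CPM. None of 17 transcription factors or of 12 VEGF, angiopoietin and semaphorin genes passed 2-fold on all days either. The same held for 13 BMP and TGF-beta genes, 5 tip and capillary genes and 19 junction genes. RAMP2 differed most among the genes of the adrenomedullin receptor on days 7 and 9, at 462, 340.4 and 544 CPM in members and 252, 211 and 437 CPM in cells with RUNX1. Of 16 hemogenic and early blood genes outside the rule, 15 did not reach 50 CPM on all days, so the fold was not called for them. The 1 that did missed the fold. ITGA2B, which encodes CD41, was at 14.8, 19.8 and 18.8 against 115, 111 and 31.9 CPM in the cells with RUNX1. MYB was at 15.8, 17.3 and 0.989 against 47.3, 23.5 and 7.53 CPM. SPI1 was at 2.26, 1.80 and 4.62 against 26.7, 15.2 and 8.41 CPM. GFI1B was at 2.77, 2.27 and 0.330 against 27.4, 17.6 and 7.53 CPM. Each of these was higher in the cells with RUNX1. Doublet calls were more frequent in the cells with RUNX1 on each day, at 7.62%, 8.39% and 7.61%, and their part in these differences was not tested.

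Between day 7 and day 12, 215 of 4780 genes were at least 2-fold higher at day 12 in members (4.5%) and 188 were at least 2-fold lower (3.93%). In other cells 558 of 4725 genes were higher (11.8%) and 454 lower (9.61%). Most of the difference lay after day 9: against day 7, day 9 had 33 genes higher (0.725%) and 30 lower (0.659%), whereas day 12 against day 9 had 169 higher (3.51%) and 136 lower (2.83%).

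Some genes of contact and of the arterial side stood higher on day 12, while most of both lists did not pass the fold. Of 20 junction genes 3 were higher, namely CLDN5, PCDH12 and GJA5, where 4.5% of all genes were higher and 3.93% lower. GJA5 was 5.17-fold (95% interval 4.86 to 5.50) higher on day 12 than on day 7, CXCR4, the receptor for CXCL12, 3.17-fold (95% interval 2.98 to 3.37), and CLDN5 4.64-fold (95% interval 4.34 to 4.96). ICAM2, an adhesion protein of endothelial junctions, went from 54.0 to 307 CPM and RAPGEF5, an exchange factor for Rap, from 189 to 911 CPM. Of 18 arterial and Notch genes 4 were higher and 0 lower, but HEY1, at 203, 173 and 201 CPM, and EFNB2 did not pass the fold, nor did HEY2. The caveola genes CAV1 and CAV2 were at 51.6, 36.1 and 208 and 25.1, 23.6 and 74.9 CPM. Of the pan-endothelial list 5 of 32 genes were higher and VWF was the 1 that was lower. These genes also stood higher in cells with RUNX1, where CLDN5 reached 573 CPM and GJA5 669 CPM on day 12.

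Some genes were nearly absent before day 12. CYP26B1, an enzyme that breaks down retinoic acid, was at 0.584, 0.869 and 106 CPM in members and 0.677, 0.671 and 2.03 CPM in other cells. ADAMTS5 was at 1.83, 5.08 and 79.8 CPM, the cadherin CDH20 at 1.83, 4.74 and 66.6 CPM and VEGFC, the ligand of FLT4, at 17.9, 93.4 and 429 CPM. In cells thinned to 8000 UMIs 0.345%, 0.567% and 35.3% of members had a CYP26B1 UMI, against 0.259% of macrophage reference cells on day 12. In cells with RUNX1 these genes reached 83.7 (CYP26B1), 82.3 (ADAMTS5), 80.1 (CDH20) and 478 CPM (VEGFC) on day 12.

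Of the 10 genes with the largest folds toward day 12, 6 were higher in other cells on that day, namely PPBP, PF4, PRG2, SPP1, DCN and MCTP1. PPBP and PF4, platelet chemokines, were at 0, 9.15 and 117 and 1.46, 10.4 and 96.0 CPM in members and at 1.04, 172 and 261 and 28.2, 234 and 147 CPM in other cells. PRG2, an eosinophil granule gene, was at 1.68, 7.22 and 89.0 CPM against 12.3, 103 and 1692 CPM in other cells, and on day 12 a PRG2 UMI was seen in 39.9% of thinned members and 38.6% of thinned macrophage reference cells. SPP1, a secreted phosphoprotein, and DCN, a matrix proteoglycan, were at 174 and 69.6 CPM in members on day 12 and at 4715 and 370.4 CPM in other cells. A PPBP UMI was seen in 9.15% of thinned members, 4.41% of macrophage reference cells and 5.30% of collagen-rich cells, and a PF4 UMI in 5.23%, 4.06% and 3.11%. For SPP1 these shares were 68.0%, 96.8% and 65.0%, and for DCN 16.3%, 12.4% and 86.9%. The source of these UMIs was not tested.

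Endocardial genes were among those lower at day 12, and the clusters that held members differed between days: cluster 2, with SOST at 414 CPM against 30.0 CPM in the remaining members, held 30.6% of day 7, 15.6% of day 9 and 0% of day 12 members. SOST, an inhibitor of WNT and BMP signals, was at 209.6, 30.9 and 6.60 CPM, FCN3 at 302, 132 and 31.3 CPM and SFRP1, a secreted WNT antagonist, at 63.6, 50.6 and 3.63 CPM. Of 7 endocardial genes 4 were lower, where 3.93% of all genes were lower and 4.5% higher. NPR3 was the 1 endocardial gene that was higher, at 90.3, 193 and 275 CPM. GATA4 and NFATC1, factors of the endocardium, were at 51.7, 50.04 and 23.7 and 67.6, 39.9 and 23.4 CPM. ESM1 and LPL, of the tip and capillary list, were at 1020.2, 1139.7 and 384 and 391, 167 and 58.0 CPM. SMAD6 and SMAD7, inhibitors of BMP and TGF-beta signals, were at 412, 451 and 132 and 84.6, 72.0 and 29.4 CPM, and the BMP receptor BMPR1A was at 107, 68.1 and 10.6 CPM. ACTC1, a cardiac actin gene, was at 115, 49.8 and 1.32 CPM in members and at 453, 189 and 28.6 CPM in other cells. Most members held little of it: in cluster 6, where 67.5% of cells were called doublets, it was at 480.2 CPM, and in the remaining members of all days at 24.2 CPM. Of 15 glycolysis genes 3 were lower and 0 higher, with ENO1 at 1314, 1080.1 and 566 CPM.

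**Figure D3:**
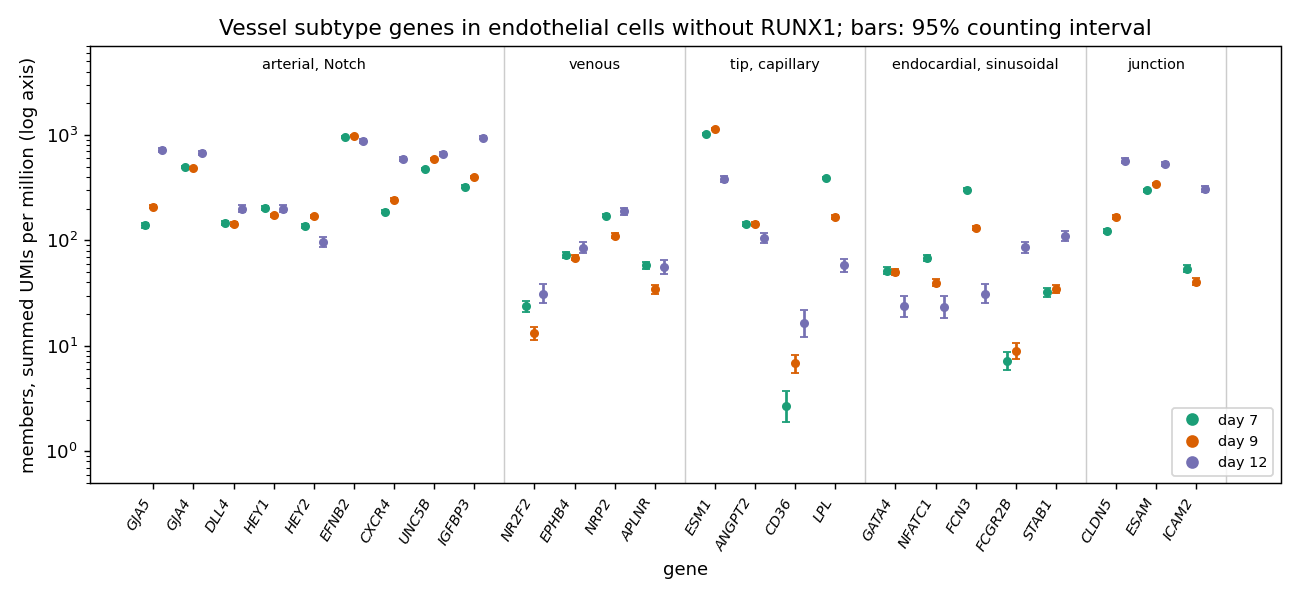
Summed UMIs per 1000000 of the members (y axis, log scale) for vessel subtype genes (x axis), by day, with 95% exact Poisson intervals that cover counting error only. GJA5, CLDN5 and CXCR4 were highest on day 12, while ESM1, LPL and FCN3 were lowest there.

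Members divided into 9 clusters, described by number since clusters were made from these cells. Cluster 5, of 145 cells, held 81.5% of day 12 members and no cell of another day, so library and cell state cannot be told apart in it. It had VEGFC at 483 CPM against 61.4 CPM in the other members and GJA5 at 793 CPM. Cluster 1, with 406 cells of which 91.9% were from day 9, had DEPTOR at 285 CPM and the interferon-responsive ISG15 at 183 CPM against 77.9 CPM elsewhere.

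Clusters 2 and 3 were both drawn from days 7 and 9 and lay apart in vessel subtype genes. Cluster 2, of 342 cells, had NR2F2 at 49.2 CPM, APLNR, the apelin receptor, at 108 CPM, NRP2 at 328 CPM and GATA4 at 133 CPM. DLL4 there was at 62.2 CPM, CXCR4 at 48.8 CPM and ESM1 at 66.3 CPM. Cluster 3, of 321 cells, had the reverse order, with NR2F2 at 2.65 CPM, DLL4 at 230.2 CPM, CXCR4 at 344 CPM and ESM1 at 1769 CPM. EFNB2 was at 602 CPM in cluster 2 and 1355 CPM in cluster 3. Cluster 7, of 101 cells, had the highest ESM1, at 4426 CPM, with ANGPT2 at 818 CPM, APLN at 243 CPM and MMP1, a collagenase, at 109 CPM.

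Cluster 4, of 165 cells from all 3 days, held the mitotic genes, with MKI67 at 294 CPM and TOP2A at 438 CPM. Clusters 6 and 8 held genes from the lists of other cell types. In cluster 6, where 67.5% of the 120 cells were called doublets, COL1A1 was at 1439 CPM, KRT19 at 923 CPM and ACTC1 at 480.2 CPM. In cluster 8, of 90 cells, HBG2 was at 2039 CPM and PF4 at 189 CPM, and 3.33% of cells were called doublets. The PF4 level there included 1 cell of day 12, described above. Cluster 9 held 88 cells with a median of 8884.5 UMIs, the lowest of the clusters, and the immediate early genes FOS and FOSB were at 253 and 126 CPM there.

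**Figure D4:**
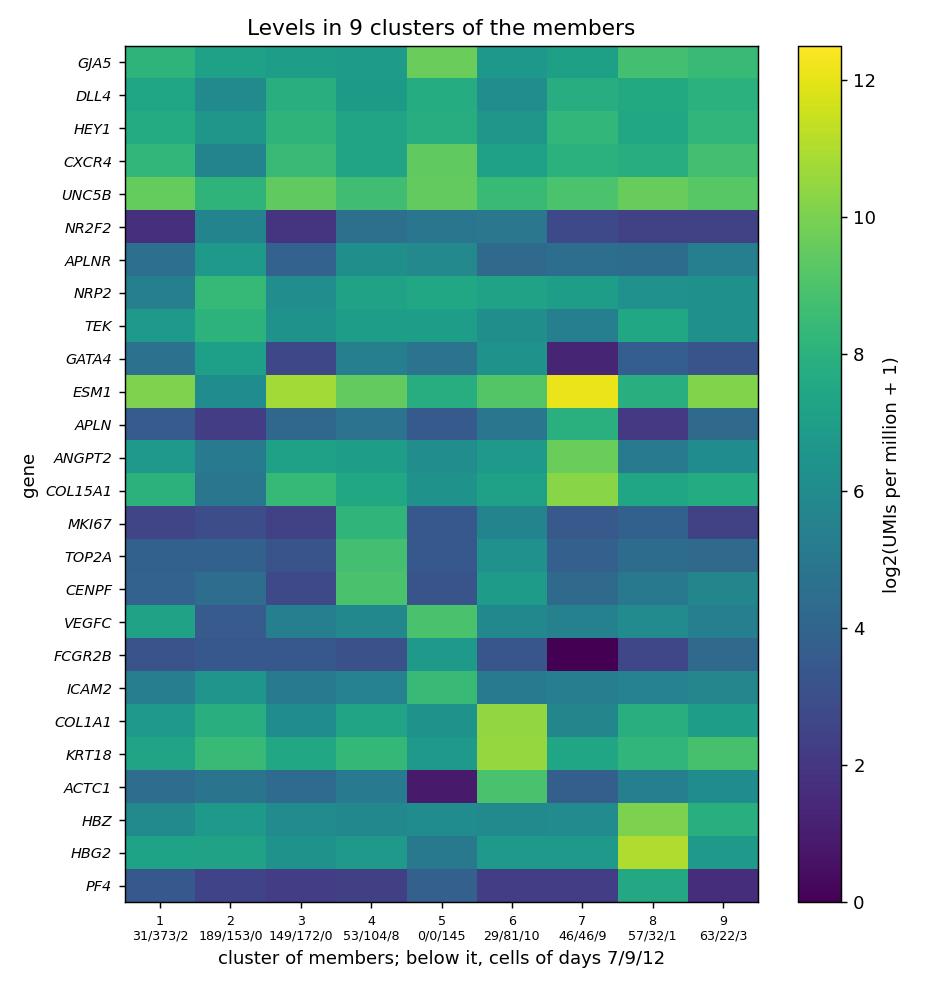
Levels of 26 genes (y axis) in the 9 clusters of members (x axis, with cells of days 7, 9 and 12 below each number), as log2 of summed UMIs per 1000000 plus 1. NR2F2, APLNR and GATA4 are higher in cluster 2, ESM1 and ANGPT2 in cluster 7, mitotic genes in cluster 4 and globins in cluster 8.

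Bulk RNA of day 12, which the rule did not use, gave the 3D against 2D comparison for the pan-endothelial list. In bulk RNA fewer cells of a type and less RNA per cell cannot be told apart, and which cells gave the RNA was not tested. Nothing says that the 4 libraries of a group came from separate cultures, so p-values measure only the spread between these libraries. Values are TPM (transcripts per 1000000) and tests are limma on log2(TPM + 1) with Benjamini-Hochberg adjustment over 13131 genes, 4 libraries in each group. Over all genes 1710 rose in 3D (13.0%) and 3249 fell (24.7%). With TPM scaled by the median ratio of genes, 2387 rose and 2538 fell, and the median log2 difference of all genes moved from -0.21 to -0.04. ADGRF5, ADGRL4, ROBO4, EMCN, CLEC14A, ARHGEF15 and FAM167B were listed at 0 in all 8 libraries. In members of day 12 ADGRL4 was at 824 CPM and EGFL7 at 866 CPM. CPM of UMIs and TPM of bulk libraries are unlike measures, and why genes were listed at 0 in bulk was not tested. Of the 36 genes 14 had a mean of at least 1 TPM and were tested, 2 rose, 6 fell and 6 did not pass. Their median log2 difference was -0.48.

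CDH5 was at 0.34, 0.73, 0.81 and 0.89 TPM in the 2D libraries and 2.51, 3.71, 2.84 and 2.26 TPM in the 3D libraries, and the groups did not overlap. The means were 0.693 ± 0.244 and 2.83 ± 0.633 TPM (SD, n = 4), and CDH5 rose by 1.18 on the log2 scale (SE 0.19, limma adjusted p = 0.00201). S1PR1, a sphingosine 1-phosphate receptor, was at 0, 0.13, 0.35 and 0.28 TPM in 2D and 4.54, 3.39, 6.82 and 2.24 TPM in 3D, and it rose by 2.08 (SE 0.27, limma adjusted p = 0.000921). Both were low: all 8 values of each lay under 10 TPM.

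EGFL7, a secreted protein of vessels whose gene hosts a microRNA, was at 250.3, 269.45, 260.02 and 222.17 TPM in 2D and 66.46, 118.31, 111.61 and 63.14 TPM in 3D. Its log2 difference was -1.52 (SE 0.24, limma adjusted p = 0.00202) and the groups did not overlap. ICAM2 fell from 54.3 ± 14.1 to 22.3 ± 7.101 TPM (SD, n = 4), with limma adjusted p = 0.00834. PCDH12, a protocadherin of endothelium, fell by 0.82 on the log2 scale and ESAM by 1.81. ESAM was at 2.26, 2.11, 3.04 and 10.17 TPM in the 2D libraries, 1 of which stood far above the others, and at 0.5, 0.45, 0.39 and 0 TPM in 3D. PECAM1 was at 8.67, 6.59, 6.46 and 8.16 TPM in 2D and 4.71, 5.45, 4.68 and 4.82 TPM in 3D, without overlap. It had a log2 difference of -0.51 (limma adjusted p = 0.0334), and ECSCR one of -1.01 (limma adjusted p = 0.0256). The PECAM1 call was lost under the median-ratio scaling (adjusted p = 0.137). It was also lost without 2D replicate 1 or 4 or any 1 of the 3D replicates, where its adjusted p was 0.0532 to 0.0819. The ECSCR call was lost without 3D replicate 2, 3 or 4 (adjusted p 0.0502 to 0.0696). ECSCR fell under the filter, with no test, without 2D replicate 1, 2 or 3 and under the median-ratio scaling. With a pseudocount of 0.1 the log2 difference was 1.93 for CDH5, 4.01 for S1PR1, -3.34 for ESAM and -2.62 for ECSCR, and all 4 calls held.

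ENG, the TGF-beta co-receptor endoglin, was at 84.0 ± 14.3 and 75.7 ± 15.3 TPM (SD, n = 4) and did not pass (limma adjusted p = 0.583). FLT1, MMRN2, PLVAP, RAMP2 and TIE1 did not pass either, with RAMP2 at 4.54, 0.94, 1.7 and 4.1 TPM in 2D and 1.84, 0.28, 0.54 and 1.55 TPM in 3D. KDR was at 0.55, 0.17, 1.05 and 0.09 TPM in 2D and 0, 0.35, 0 and 0 TPM in 3D and was not tested. CLDN5 was listed at 0 in 7 of the 8 libraries, and the members were 2.24% of the single cells of day 12.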

How the data were processed

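Single-cell RNA of 3 libraries (10X Genomics, per the labels) was deposited as UMI counts of 36601 genes, and the file headers name Cell Ranger 7.1.0 (days 7 and 9) and 7.0.0 (day 12), with GRCh38 named in the submitters' processing notes. Bulk RNA was deposited by the authors as TPM, from SMART-seq2 libraries, per the labels' protocols. Which tool computed the TPM values was not given in the sources used. The 8 ATAC and 11 ChIP samples were not used here.

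Members were found by the stated rule, and their counts were summed within each day and scaled to CPM with scanpy 1.11.5 and numpy 2.4.6. A gene passed the fold when the higher population had at least 50 CPM and the fold was at least 2 on each of the 3 days. A population with under 3 counts was set to 3 counts in folds. With 1 library a day no p-value was computed. Intervals are exact, at 95%, and cover counting error only. Doublets were called with Scrublet at an expected rate of 0.06 and kept. For shares of cells with a UMI, cells were thinned to 8000 UMIs, which left out 37, 101 and 25 members. Clusters came from 2000 variable genes without the 4 rule genes, 20 components, 15 neighbours and Leiden resolution 0.5. Macrophage reference cells held PTPRC and at least 10 UMIs of CD14, CD68, CSF1R, C1QA, C1QB and C1QC, and collagen-rich cells at least 20 UMIs of COL1A1, COL1A2 and COL3A1 without PTPRC. Bulk day 12 groups of 4 were compared with limma 3.58.1 on log2(TPM + 1) for genes with a mean of at least 1 TPM, adjusted over all genes at 0.05. The scripts were tested on simulated data.

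Named genes were the 25 highest against other cells by their smallest fold over days, the 10 largest each way in the other comparisons, and members of the gene lists. The members and the lists were chosen with earlier results of these data known. Alternatives covered the rule's thresholds, depth, doublets, scaling, filters, pseudocount and leaving out libraries.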

Additional observations from a re-analysis of the deposited data

Results flagged for a closer look

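ESAM, which encodes an adhesion protein of endothelial junctions, had 1 of the 4 bulk 2D day 12 libraries far from the rest, at 10.17 TPM against 2.26, 2.11 and 3.04 TPM. It was the only 1 of 28 groups of bulk values checked that stood apart in this way, and chance sets apart about 1 in 20 groups.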

How the results depend on the processing

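Among single-cell values, the day 9 share of 8.38% became 9.11% with CDH5 of at least 1 UMI, 7.55% with at least 3, 7.84% with at least 6 UMIs of CDH5 and PECAM1, and 9.45% in cells with at least 5000 UMIs. With 1 RUNX1 UMI allowed, the shares were 14.1%, 12.7% and 2.85% on days 7, 9 and 12, and in cells thinned to 8000 UMIs they were 12.3%, 10.7% and 2.74%. The 110 genes lower than in other cells became 175 without globin, mitochondrial and ribosomal protein genes, 270.0 at 20 CPM and 55 at 100 CPM. With days 7 and 9 alone, chosen after seeing the data, there were 169. The 11 genes lower than in cells with RUNX1 became 7 with a mean over cells and 1 after thinning. Thinning also counted cells that lost their RUNX1 UMIs as members. In bulk, a filter at a mean of 5 TPM, which tests fewer genes, left 0 pan-endothelial genes that rose and 3 that fell. Under the median-ratio scaling ENG changed sign, from -0.16 to 0.051 on the log2 scale (limma adjusted p = 0.869).

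Leaving out each bulk library in turn gave 1250.0 to 1601 genes that rose, 2762 to 2979 that fell, 2 to 3 pan-endothelial genes that rose and 4 to 5 that fell. With the replicate number as a block, 1402 genes rose and 2708 fell, 2 and 6 of the pan-endothelial list, with PECAM1 not called (limma adjusted p = 0.0920) and RAMP2 called (0.0222). Libraries of the same number correlated by -0.01 to 0.04 in their deviations, and 2 of 4 pairs were closest to their own number, so the numbers do not pair them. A mean-variance trend ended the ECSCR and PECAM1 calls (limma adjusted p = 0.0591 and 0.0643), and the cause was not tested. Of the other values of single genes, 436 kept their side of the threshold or moved by less than the counting error, and 140.0 single-cell values moved by more. Against cells with RUNX1, 29 values moved by more than the counting error and 16 did not. Against all other cells 92 moved by more and 196 did not, and between days 19 did and 56 did not. The other 168 of the 436 were bulk values, judged by their side of the threshold. With 1 library a day, depth limits what 0 RUNX1 UMIs can show.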
